A study of Homo sapiens with 4 samples.

Results

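Genes that report on, or restrain, the mitogen-activated protein kinase (MAPK) cascade were followed in the human breast cancer line MDA-MB-231 (spelled MDA-B-231 in the sample titles), labelled triple negative, that is, without hormone receptors or amplified ERBB2. The 39 members were chosen by symbol from the 61471 gene names of the deposited count tables. They fell into 6 classes: 8 AP-1 factors, 9 other immediate early genes, 7 dual-specificity phosphatases (DUSP), 6 Sprouty, SPRED and PHLDA1 genes, 3 ETV factors and 6 kinases. RNA of 4 libraries was sequenced, 2 of EGFP negative cells, labelled with increased extravasation (passage out of a vessel), and 2 of EGFP positive cells, labelled without it. All 4 carry the labels wild-type genotype and transfection with H2B-EGFP, a histone fused to a green fluorescent protein, and CMV-RFP, a red fluorescent protein behind a viral promoter. EGFP status and the extravasation label differ between the same libraries, so their effects cannot be told apart. The study's title concerns polyploidy, but the sample labels used here give no ploidy for either group, and they do not say that libraries came from separate cultures. A p-value here thus reflects the scatter between 2 libraries per group, possibly technical in part. The test moderates that scatter with the spread of all tested genes, so it is not the scatter of each gene alone.

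In the MAPK cascade, RAS proteins activate RAF kinases, RAF activates MEK, and MEK activates ERK. ERK and its effector kinases of the RSK family induce immediate early genes within minutes, many of them transcription factors of the AP-1 and EGR families. The same signal raises the expression of its own brakes, the DUSP phosphatases, which remove phosphate from MAP kinases, and the Sprouty and SPRED proteins, which act near RAS and RAF. MDA-MB-231 cells carry an activating mutation in BRAF, so the cascade is driven from within in this line.

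Library totals ran from 11445076 to 12635576 counts, so that 3 counts equal 0.237 to 0.262 CPM (counts scaled to library size). Of the markers of the line, VIM, CD44, EGFR and KRT18 were at 377 to 6022 CPM in every library. VIM was higher in EGFP negative cells (adjusted p = 2.0e-04), and CD44 (8.3e-04) and EGFR (0.0059) were lower. The hormone receptor genes ESR1 and PGR had 0 to 2 counts. ERBB2 was not low, at 99.2 and 95 CPM in EGFP negative libraries and 81.5 and 80.6 CPM in EGFP positive libraries (adjusted p = 0.057). Whether ERBB2 is amplified was not tested. Of the leukocyte markers, CD3E had no counts. PTPRC had 4 and 2 counts in EGFP negative libraries and 6 and 2 in EGFP positive libraries. CD14 had 10 and 9 counts in EGFP negative libraries and 6 and 2 in EGFP positive libraries. The 3 endothelial markers summed to 3.21 and 3.69 CPM in EGFP negative libraries and to 1.04 and 0.955 CPM in EGFP positive libraries, mostly PECAM1, with CDH5 at no counts. PECAM1 had 39 and 43 counts in EGFP negative libraries and 9 and 9 in EGFP positive libraries (adjusted p = 0.0015). The 3 fibroblast markers summed to 28.3 and 18.3 CPM in EGFP negative libraries and to 26.7 and 23.1 CPM in EGFP positive libraries, with DCN at no counts and PDGFRB higher in EGFP negative cells (5.86 and 4.46 CPM in EGFP negative libraries, 3.2 and 1.82 CPM in EGFP positive libraries, adjusted p = 0.033, but 0.063 without EGFP negative library 1, 0.34 without EGFP positive library 2 and 0.11 by DESeq2). Heat shock genes, which respond to handling as immediate early genes do, summed to 538 and 563 CPM in EGFP negative libraries and to 638 and 615 CPM in EGFP positive libraries, and of the 4 only HSPH1 passed, lower in EGFP negative cells (adjusted p = 0.049, and not in 7 of 11 alternative fits). The part of these markers in the results was not tested.

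Of the 39 members 37 had enough counts to be tested, and 18 of them differed between the groups, 11 higher and 7 lower in EGFP negative cells. That is 48.6% of the tested members, where 18.9% of all 16413 tested genes passed (9.4% higher and 9.46% lower). Among genes with a mean of at least 10 CPM, 17 of 32 members passed, against 23.6% of 10430 genes. The members were chosen with earlier results of these data known, so these shares are a description and no test of the set. The log2 fold changes of the members had a median of 0.06 and ran from -2.07 to 3.45, and the median over all tested genes was 0.00. EGR2 and EGR3, with 0 to 5 counts per library, were not tested. The share of all genes that passed was 18.6% with RLE and 19.3% with upper quartile scaling, 7.57% with no filter and 21.5% with a stricter one, 12.4% by DESeq2, 18.7% by limma-voom and 28.7% with the replicate number as a block. It was 27.4% and 30.1% without EGFP negative library 1 or 2, and 9.13% and 8.85% without EGFP positive library 1 or 2. Calls lost or gained below are read against these shares. A fit without 1 library leaves a lone library in that group, which is assumed to vary like the others. A call gained in such a fit rests on that lone library. In 30 of the 37 tested members the groups did not overlap, against 57.4% of all tested genes. All 18 called members are among the 30, so a lack of overlap given below for a called member is no separate evidence. DUSP2 reached the count minimum of 10 in no EGFP negative library and FOSB in 1. Both entered the test through the EGFP positive libraries. Without DUSP2 the lower members number 6. A positive log2 fold change means a higher level in EGFP negative cells, n is 2 libraries in each group, and adjusted p-values come from edgeR's quasi-likelihood test with Benjamini-Hochberg adjustment over all tested genes, two-sided. In bulk RNA, fewer cells of one kind and less RNA per cell cannot be told apart.

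**Figure D1:**
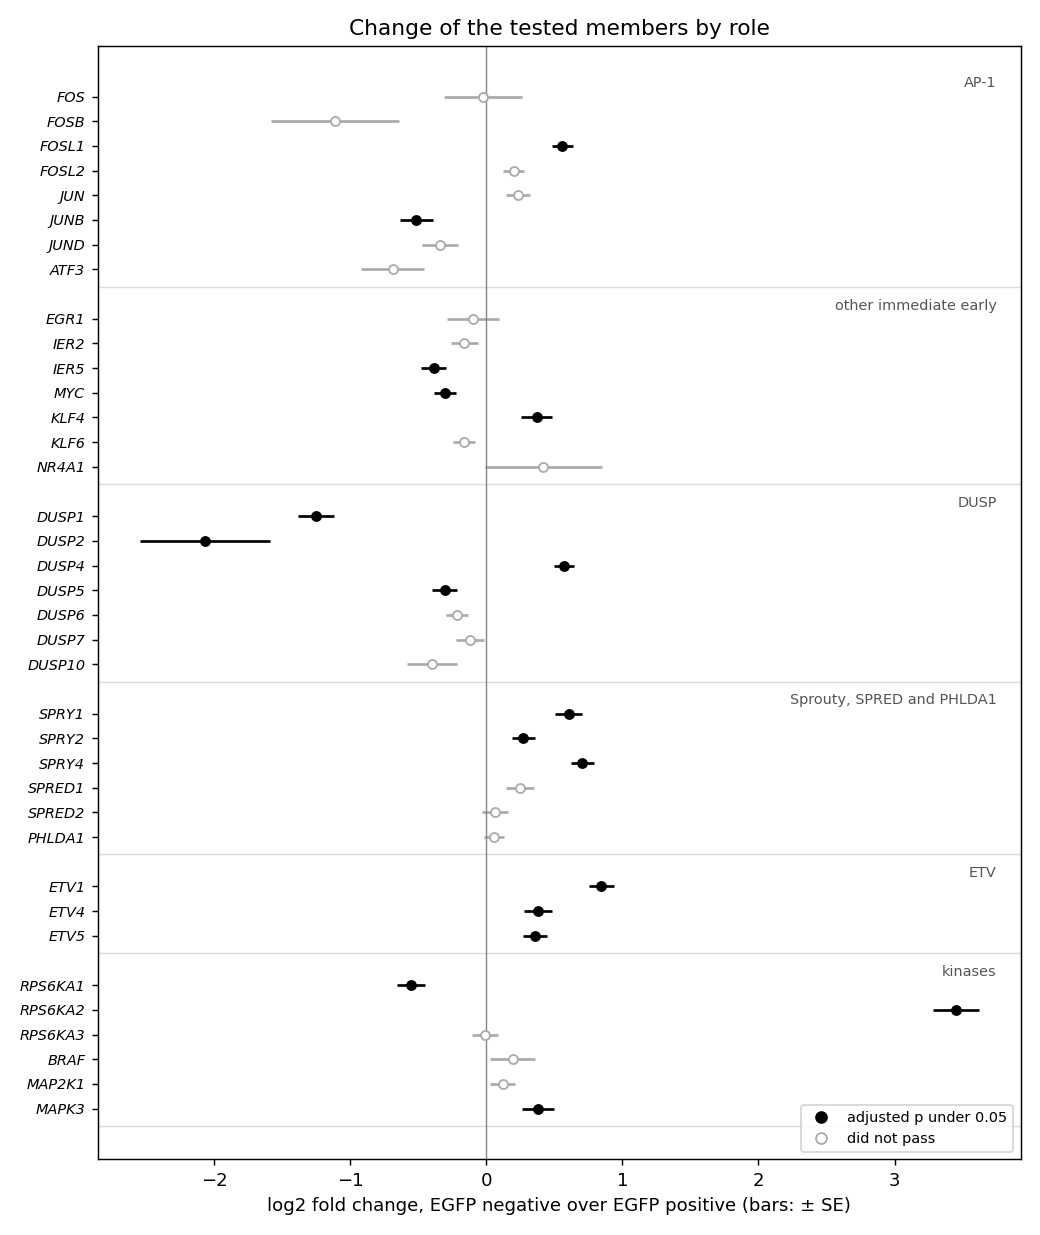
The log2 fold change (EGFP negative over EGFP positive, x axis) of the 37 tested members, grouped by role, with bars of 1 standard error over n = 2 libraries per group. Filled points passed at an adjusted p under 0.05. All 3 ETV members and the 3 Sprouty members are filled and lie to the right of 0, while 6 of 7 DUSP members lie to the left, of which 3 are filled.

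The members' promoters were searched for letters bound by factors that MAP kinases act on, and for the TATA box. RefSeq (GRCh38.p14) gave 51 promoters for 32 of the members, and the 250 bases before each start were searched on both strands for the cyclic AMP response element (CRE, TGACGTCA), its half-site (TGACG, also counted inside a CRE), the AP-1 site (TGANTCA), an ETS site (CCGGAAG), the TATA box (TATAAA) and the CArG box bound by serum response factor. The half-site was in 19 of the members' 51 promoters (37.3%) and in 21.2% of all 35116 promoters. The CArG box was in 3 of 51 (5.88%) and 1.16%, and the CRE in 2 of 51 (3.92%) and 1.65%. The TATA box was in 6 of 51 (11.8%) and 10.7%, the ETS site in 2 of 51 (3.92%) and 8.52%, and the AP-1 site in 0 of 51 and 6.57%. Among the 7 matched members that were higher in EGFP negative cells 4 had the half-site, among the 5 lower ones 3 and among the 19 that did not pass 9. A match is a description of letters, not of binding. Shown are DUSP1, the member with the second largest fall, JUND, the only other member with a whole CRE, EGR1, whose 2 CArG boxes stand beside a level that did not pass, RPS6KA2, the member with the largest rise and 1 CArG box in the first of its 3 listed promoters, and SPRY4, the Sprouty gene with the largest rise. Sequences run 5′ to 3′ and end at the base before the start; capitals mark matches to any of the motifs.
DUSP1, chr5:172771196-172771445, minus strand: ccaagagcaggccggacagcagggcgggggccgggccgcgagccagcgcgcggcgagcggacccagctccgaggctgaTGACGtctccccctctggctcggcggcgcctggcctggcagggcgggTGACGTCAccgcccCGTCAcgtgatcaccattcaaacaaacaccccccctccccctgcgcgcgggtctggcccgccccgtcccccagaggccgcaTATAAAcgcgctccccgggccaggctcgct
JUND, chr19:18281623-18281872, minus strand: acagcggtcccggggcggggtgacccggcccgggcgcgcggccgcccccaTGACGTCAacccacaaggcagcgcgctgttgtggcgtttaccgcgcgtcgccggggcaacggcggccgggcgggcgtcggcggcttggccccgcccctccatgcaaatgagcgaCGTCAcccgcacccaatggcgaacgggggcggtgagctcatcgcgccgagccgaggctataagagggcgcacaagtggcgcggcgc
EGR1, chr5:138465229-138465478, plus strand: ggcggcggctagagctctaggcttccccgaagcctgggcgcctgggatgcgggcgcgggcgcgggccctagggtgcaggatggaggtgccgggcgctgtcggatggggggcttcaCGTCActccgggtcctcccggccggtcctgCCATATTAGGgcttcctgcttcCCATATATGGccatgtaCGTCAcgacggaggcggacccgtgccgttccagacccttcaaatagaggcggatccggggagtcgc
RPS6KA2, chr6:166862526-166862775, minus strand: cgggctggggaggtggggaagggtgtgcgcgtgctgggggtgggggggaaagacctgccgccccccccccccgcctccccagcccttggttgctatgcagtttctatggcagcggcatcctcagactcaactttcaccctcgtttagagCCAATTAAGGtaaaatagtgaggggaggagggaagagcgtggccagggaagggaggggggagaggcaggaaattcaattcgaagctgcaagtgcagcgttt
SPRY4, chr5:142324248-142324497, minus strand: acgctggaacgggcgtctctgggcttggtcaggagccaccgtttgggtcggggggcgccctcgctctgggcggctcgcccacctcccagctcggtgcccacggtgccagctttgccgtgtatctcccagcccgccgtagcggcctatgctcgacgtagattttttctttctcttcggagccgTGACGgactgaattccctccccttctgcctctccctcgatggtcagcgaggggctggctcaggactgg
In DUSP1 the CRE lay at positions -125 to -118 from the start and the TATA box at -30 to -25. The CArG boxes of EGR1 lay at -105 to -96 and -83 to -74, and that of RPS6KA2 at -101 to -92.

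Among AP-1 factors, the dimeric regulators that bind the site named above, FOSL1 rose and JUNB fell in EGFP negative cells, 2 of 8 members. That is 25% of the class, not far from the 18.9% of all tested genes and 23.6% of those at 10 CPM or more. FOSL1 (chromosome 11, 65892049 to 65900419), which encodes the FOS-related protein FRA-1 associated with invasion in breast cancer cells, was at 537 and 492 CPM in EGFP negative libraries and at 358 and 341 CPM in EGFP positive libraries. The log2 fold change was 0.56 ± 0.08 (SE, adjusted p = 1.9e-04), and the groups did not overlap. JUNB, a JUN protein that can oppose JUN, was at 21.9 and 21.5 CPM in EGFP negative libraries and at 31.4 and 30.6 CPM in EGFP positive libraries, or -0.51 ± 0.12 as log2 fold change (SE, adjusted p = 0.0085). Both EGFP negative libraries lay below both EGFP positive ones.

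The 2 most abundant AP-1 members that did not pass were FOSL2, encoding FRA-2, and JUN. FOSL2 was at 356 and 343 CPM in EGFP negative libraries and at 309 and 299 CPM in EGFP positive libraries (adjusted p = 0.085). JUN was at 236 and 207 CPM in EGFP negative libraries and at 189 and 188 CPM in EGFP positive libraries (adjusted p = 0.076). The other 4, FOS, FOSB, JUND and the stress-induced ATF3, had log2 fold changes of -1.11 to -0.02, with adjusted p-values of 0.052 (ATF3) to 0.97 (FOS). On a scale per gene length (TPM, scaled for length and depth), FOSL1 made up 85.1 and 84.6% of the summed level of the 4 FOS family genes in EGFP negative libraries and 81.3 and 81.1% in EGFP positive libraries. FOS itself, the classic serum-induced member, was at 3.8 and 2.54 TPM in EGFP negative libraries and at 3.72 and 2.92 TPM in EGFP positive libraries, so that its groups overlapped. Within the JUN family, JUN made up 51.2 and 55.4% of the summed TPM in EGFP negative libraries and 42.6% in each EGFP positive library. JUNB lost its call without EGFP positive library 1 (adjusted p = 0.11) or 2 (0.072). Without EGFP negative library 1, FOSB (adjusted p = 3.4e-04), FOSL2 (0.039) and JUND (5.2e-12) passed, and without EGFP negative library 2, FOSL2 (0.0021), JUN (2.0e-05) and ATF3 (0.020) did. JUND stood at 110 and 76 CPM in EGFP negative libraries 1 and 2 and at 118 CPM in each EGFP positive library.

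**Figure D2:**
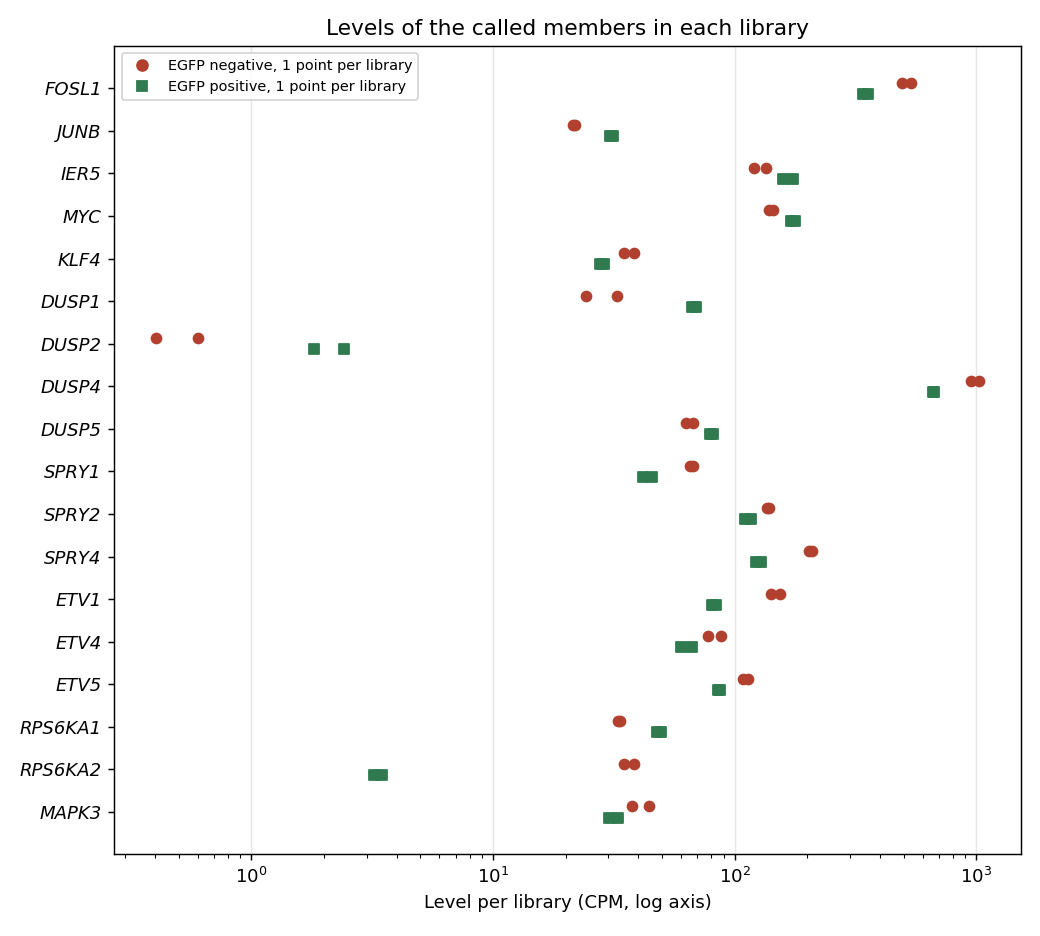
Level of each of the 18 members that passed, in CPM on a log axis, with 1 point per library, circles for EGFP negative and squares for EGFP positive. RPS6KA2 has the widest gap, at 34.8 and 38.2 CPM in EGFP negative libraries against 3.21 and 3.46 CPM in EGFP positive libraries. In no row do the groups overlap. The rows were selected by the test, and 57.4% of all tested genes did not overlap either, so this is no separate evidence.

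Of the 9 other immediate early genes, KLF4 rose and IER5 and MYC fell in EGFP negative cells, all by less than 1 on the log2 scale. KLF4, a zinc finger factor of epithelial differentiation, was at 34.8 and 38.4 CPM in EGFP negative libraries and at 28.9 and 27.7 CPM in EGFP positive libraries (log2 fold change 0.37 ± 0.12, SE, adjusted p = 0.039). IER5, an immediate early gene that acts with heat shock factor, was at 135 and 120 CPM in EGFP negative libraries and at 175 and 159 CPM in EGFP positive libraries (-0.39 ± 0.09, adjusted p = 0.0089). MYC, whose protein ERK stabilises, was at 144 and 139 CPM in EGFP negative libraries and at 177 and 172 CPM in EGFP positive libraries (-0.30 ± 0.08, adjusted p = 0.019). In none of the 3 did the groups overlap.

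KLF6, a tumour suppressor of the same zinc finger family, was at 167 and 163 CPM in EGFP negative libraries and at 179 and 191 CPM in EGFP positive libraries (adjusted p = 0.19). IER2, a short-lived nuclear factor, was at 85.6 and 73.9 CPM in EGFP negative libraries and at 91.4 and 87 CPM in EGFP positive libraries (adjusted p = 0.30). EGR1, a zinc finger factor that ERK induces through serum response factor, was at 9.72 and 10.5 CPM in EGFP negative libraries and at 9.34 and 12.3 CPM in EGFP positive libraries (adjusted p = 0.78), and the groups overlapped. The orphan receptor gene NR4A1 had 30 and 15 counts in EGFP negative libraries and 14 and 18 in EGFP positive ones and did not pass (adjusted p = 0.57). KLF4 lost its call without EGFP positive library 1 (adjusted p = 0.21) or 2 (0.32), by DESeq2 (0.12) and with no filter on low counts (0.085). MYC lost it without EGFP positive library 1 (0.30) or 2 (0.21), and IER5 without EGFP positive library 1 (0.22). Without EGFP negative library 1, IER2 (0.011) and KLF6 (0.046) passed.

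The phosphatase genes split: DUSP4 rose, and DUSP1, DUSP2 and DUSP5 fell in EGFP negative cells. DUSP4 (chromosome 8, 29333064 to 29350684), a nuclear phosphatase of ERK and other MAP kinases, was at 1029 and 948 CPM in EGFP negative libraries and at 667 and 663 CPM in EGFP positive libraries. It averaged 989 ± 57.3 CPM in EGFP negative cells and 665 ± 2.72 CPM in EGFP positive cells (SD, n = 2), a 1.49-fold rise (log2 fold change 0.57 ± 0.07, SE, adjusted p = 9.4e-05). DUSP1 (chromosome 5, 172768096 to 172771195), a stress-induced phosphatase of p38, JNK and ERK, averaged 28.5 ± 5.97 CPM in EGFP negative cells and 67.9 ± 1.94 CPM in EGFP positive cells (SD, n = 2). Its libraries were at 32.7 and 24.3 CPM in EGFP negative cells and at 66.5 and 69.3 CPM in EGFP positive cells, which gave a log2 fold change of -1.25 ± 0.13 (SE), with an adjusted p of 1.2e-05. Neither gene's groups overlapped.

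DUSP2, a phosphatase best known from lymphocytes, had 5 and 7 counts in EGFP negative libraries and 28 and 21 in EGFP positive libraries, or -2.07 ± 0.48 as log2 fold change (SE, adjusted p = 0.0074). It entered the test only through the EGFP positive libraries, where it is higher, and was not tested under the stricter filter, so its call is given as a description and its size is imprecise. DUSP5, a nuclear phosphatase specific for ERK, was at 67.2 and 62.8 CPM in EGFP negative libraries and at 79.2 and 81.6 CPM in EGFP positive libraries (-0.31 ± 0.09, adjusted p = 0.035). DUSP6, the cytoplasmic phosphatase of ERK and a common readout of its activity, was at 191 and 200 CPM in EGFP negative libraries and at 231.4 and 221.9 CPM in EGFP positive libraries, a gap without overlap that missed the threshold (-0.21 ± 0.08, adjusted p = 0.081). DUSP7, its close relative, was at 94.6 and 78.2 CPM in EGFP negative libraries and at 93.2 and 94.4 CPM in EGFP positive libraries (adjusted p = 0.48), and DUSP10, a phosphatase of p38 and JNK, did not pass either (adjusted p = 0.15).

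Set side by side per length, the summed level of the 7 DUSP genes was 589 and 559 TPM in EGFP negative libraries and 568 and 583 TPM in EGFP positive libraries, so the groups overlapped while the make-up differed. DUSP4 held 52.9 and 52.4% of that sum in EGFP negative libraries and 36.4 and 36.2% in EGFP positive libraries. DUSP1 held 6.08 and 4.84% in EGFP negative libraries and 13.1 and 13.7% in EGFP positive libraries. These shares are a description of 4 libraries, with no test. DUSP2 lost its call without EGFP positive library 1 (adjusted p = 0.074). DUSP5 lost it without EGFP positive library 1 (0.24) or 2 (0.35), by DESeq2 (0.097) and with no filter (0.074). DUSP6 passed without EGFP negative library 1 (0.038) or 2 (0.0050), DUSP7 without library 1 (0.013) and DUSP10 without library 2 (0.016).

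**Figure D3:**
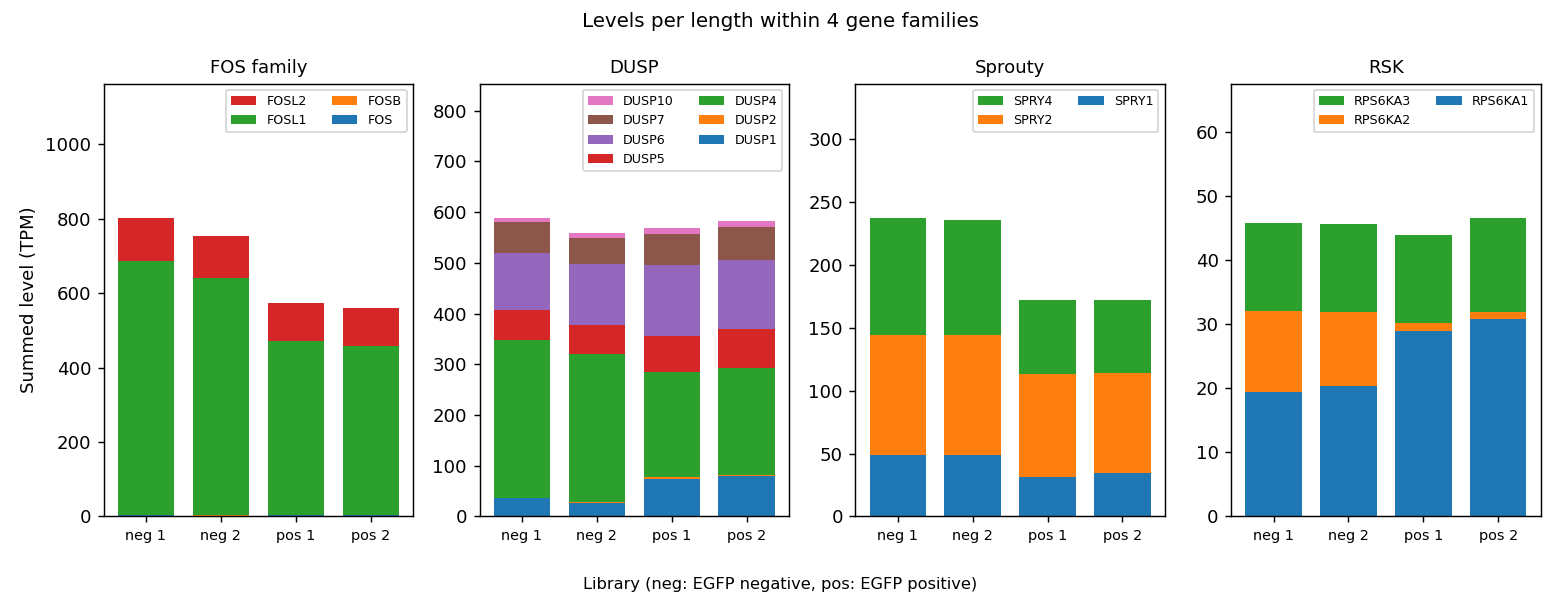
Level per gene length (TPM, stacked) of the FOS, DUSP, Sprouty and RSK genes in each library, EGFP negative (neg) left of EGFP positive (pos). The DUSP and RSK sums overlap between the groups, at 559 to 589 and 568 to 583 TPM and at 45.7 to 45.9 and 44 to 46.6 TPM, while the Sprouty sums do not, at 236 to 237 TPM in EGFP negative and 172 TPM in EGFP positive libraries.

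The 3 Sprouty members, SPRY1, SPRY2 and SPRY4, encode feedback inhibitors of receptor tyrosine kinase signalling and rose in EGFP negative cells. The remaining Sprouty gene, SPRY3, is outside the members and had 0 to 2 counts per library. SPRY4 (chromosome 5, 142310427 to 142325021) was at 209 and 202 CPM in EGFP negative libraries and at 129 and 123 CPM in EGFP positive libraries, or 0.71 ± 0.08 as log2 fold change (SE, adjusted p = 4.0e-05). SPRY1 was at 67.1 and 65.6 CPM in EGFP negative libraries and at 41.8 and 45.4 CPM in EGFP positive libraries (0.61 ± 0.10, adjusted p = 7.4e-04). SPRY2 was at 139 and 136 CPM in EGFP negative libraries and at 117 and 111 CPM in EGFP positive libraries (0.27 ± 0.09, adjusted p = 0.039). In each of the 3 both EGFP negative libraries lay above both EGFP positive ones.

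SPRED1 and SPRED2, which bring the RAS inhibitor neurofibromin to the membrane, and PHLDA1 did not pass. Their relative SPRED3, which is outside the members and was singled out after its values were seen, was at 20.2 and 19.5 CPM in EGFP negative libraries and at 11.2 and 12.2 CPM in EGFP positive libraries (log2 fold change 0.76 ± 0.15, SE, adjusted p = 0.0024), and passed in all 11 alternative fits. PHLDA1, a pleckstrin homology gene that ERK induces, was among the most abundant members, at 711 and 670.3 CPM in EGFP negative libraries and at 669.6 and 656 CPM in EGFP positive libraries (log2 fold change 0.06 ± 0.07, adjusted p = 0.64). SPRED2 was at 79.9 and 72.9 CPM in EGFP negative libraries and at 72.7 and 73.3 CPM in EGFP positive libraries (adjusted p = 0.70), and SPRED1 had a log2 fold change of 0.25 (adjusted p = 0.11). SPRY2 lost its call without EGFP positive library 1 (adjusted p = 0.25) or 2 (0.48), by DESeq2 (0.073) and with no filter (0.077). SPRED1 passed without EGFP negative library 1 (0.0060).

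All 3 ETV genes, which encode ETS factors of the PEA3 group and are induced by ERK, rose in EGFP negative cells. ETV1 (chromosome 7, 13891229 to 13991249) was at 141 and 154 CPM in EGFP negative libraries and at 83.8 and 80.3 CPM in EGFP positive libraries, a 1.8-fold rise (log2 fold change 0.85 ± 0.09, SE, adjusted p = 1.6e-05). ETV4 was at 87.6 and 77.4 CPM in EGFP negative libraries and at 66.9 and 60.1 CPM in EGFP positive libraries (0.38 ± 0.10, adjusted p = 0.018). ETV5 was at 113 and 108 CPM in EGFP negative libraries and at 85.6 and 86.9 CPM in EGFP positive libraries (0.36 ± 0.09, adjusted p = 0.011). None of the 3 overlapped between groups. The calls of ETV4 and ETV5 were lost without EGFP positive library 1 (adjusted p = 0.066 and 0.19) or 2 (0.31 and 0.16).

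Among the kinases, which here include effectors that ERK activates (RSK), RPS6KA2 rose and RPS6KA1 fell in EGFP negative cells, while RPS6KA3 did not pass. RPS6KA2 (chromosome 6, 166409364 to 166862551), which encodes RSK3, had 476 and 406 counts in EGFP negative libraries and 40 and 37 in EGFP positive libraries, or 3.45 ± 0.17 as log2 fold change (SE, adjusted p = 6.5e-09). RPS6KA1, which encodes RSK1, was at 32.9 and 33.5 CPM in EGFP negative libraries and at 47.8 and 49.6 CPM in EGFP positive libraries (-0.55 ± 0.11, adjusted p = 0.0021). RPS6KA3, which encodes RSK2, was at 56.1 and 54.5 CPM in EGFP negative libraries and at 54.7 and 56.7 CPM in EGFP positive libraries (-0.01 ± 0.10, adjusted p = 0.96). The calls of RPS6KA2 and RPS6KA1 were made in all 11 alternative fits.

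Per gene length, RPS6KA2 made up 27.4 and 25.6% of the summed TPM of the 3 RSK genes in EGFP negative libraries and 2.65 and 2.38% in EGFP positive libraries. RPS6KA1 made up 42.5 and 44.5% in EGFP negative libraries and 66.1 and 66.3% in EGFP positive libraries. The sum itself was 45.9 and 45.7 TPM in EGFP negative libraries and 44 and 46.6 TPM in EGFP positive libraries, so the groups overlapped.

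Of the kinases of the cascade itself MAPK3, which encodes ERK1, rose. It was at 44.3 and 37.7 CPM in EGFP negative libraries and at 33 and 30.1 CPM in EGFP positive libraries, or 0.38 ± 0.12 as log2 fold change (SE, adjusted p = 0.040). MAP2K1, which encodes MEK1, was at 86.9 and 88 CPM in EGFP negative libraries and at 78 and 83 CPM in EGFP positive libraries (adjusted p = 0.42), and BRAF, the RAF kinase gene of the list, did not pass (adjusted p = 0.48). MAPK3 lost its call without EGFP negative library 1 (adjusted p = 0.11) or EGFP positive library 1 (0.13) or 2 (0.36), by DESeq2 (0.11) and with no filter (0.088). Of the 18 calls among the members, those of FOSL1, DUSP1, DUSP4, SPRY1, SPRY4, ETV1, RPS6KA1 and RPS6KA2 were made in each of the 11 alternative fits.

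**Figure D4:**
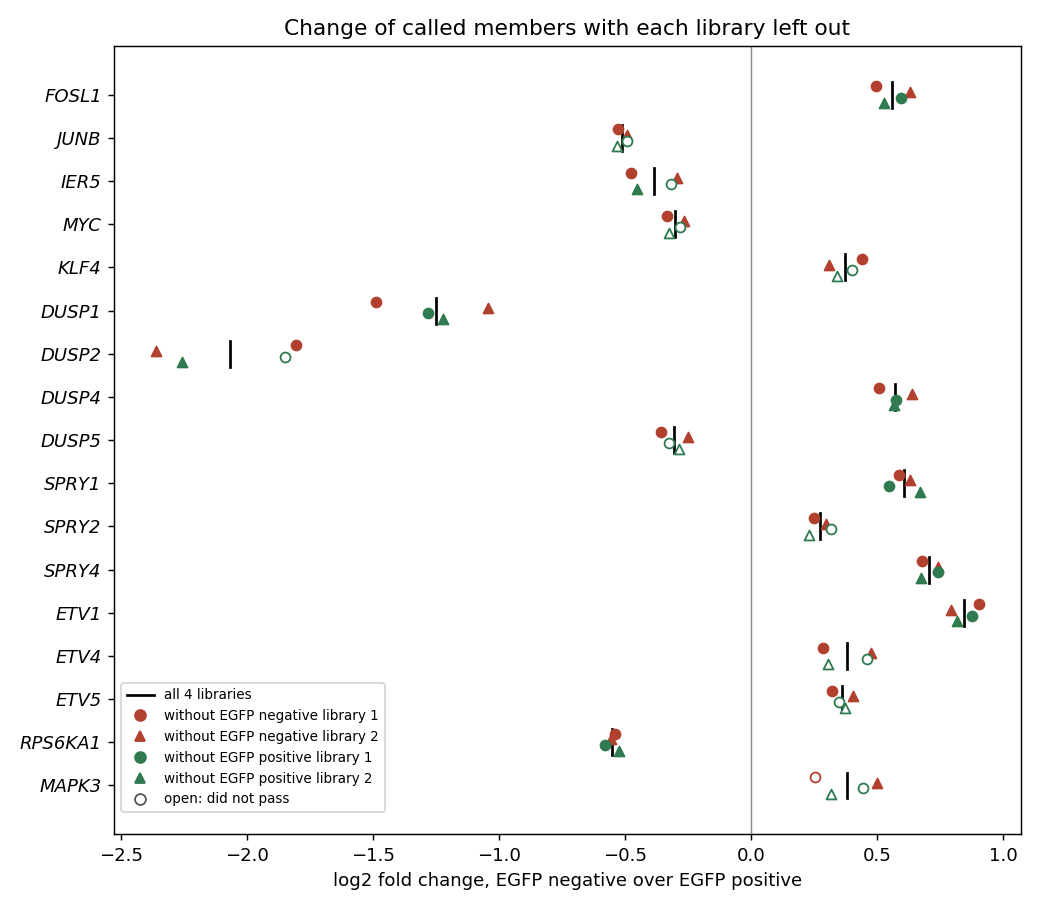
The log2 fold change (EGFP negative over EGFP positive, x axis) of 17 called members with all 4 libraries (black line) and with each library left out in turn (symbols, open where the adjusted p was 0.05 or more). RPS6KA2, at 3.38 to 3.52 in these fits, is off the scale, and no symbol lies on the other side of 0 from its line.

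Counts were made without regard to strand, and some members share exon sequence with a gene on the other strand. The largest shared parts were 27% of the exon bases of DUSP6 and 24.6% of those of IER2, whose partner genes had 8 to 13 and 0 counts per library. NDUFB2, with 368 to 478 counts per library, covered 8.6% of BRAF, which had 165 to 238. SNAPC5, with 153 to 211 counts, covered 7.18% of MAP2K1, and DHX8, with 1305 to 1523 counts, covered 1.99% of ETV4. The effect of this sharing on the counts of these members was not tested. Some members have a copy named as a pseudogene that was counted apart. FOSL1P1 had 99 and 108 counts in EGFP negative libraries and 51 and 57 in EGFP positive ones, and MAP2K1P1 had 274 and 234 in EGFP negative libraries and 244 and 238 in EGFP positive ones, beside 902 to 1082 counts of MAP2K1, so the split of reads between them is uncertain.

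Genes next to a member also moved at some places. The counts below are read against the shares over all tested genes, 9.4% higher and 9.46% lower in EGFP negative cells. Within 1 Mb of DUSP2, 31 further genes were tested, of which none was higher and 10 were lower in EGFP negative cells, and 28 had a log2 fold change below 0 (median -0.41). They included STARD7 (161 CPM in EGFP negative and 221 CPM in EGFP positive cells, adjusted p = 0.0015) and the splicing helicase gene SNRNP200 (484 CPM in EGFP negative and 642 CPM in EGFP positive cells, adjusted p = 0.0012, and 0.065 without EGFP positive library 1). Of the 8 genes tested within 1 Mb of RPS6KA2, 4 were higher and 1 lower, with RNASET2 at 14 CPM in EGFP negative and 5.89 CPM in EGFP positive cells (log2 fold change 1.25 ± 0.19, SE, adjusted p = 4.3e-04), well short of the change of RPS6KA2. Near MYC 3 of 4 tested genes were lower, among them the noncoding PVT1 (13.9 CPM in EGFP negative and 21.3 CPM in EGFP positive cells, adjusted p = 0.0092, and 0.16 without EGFP positive library 2). Members that did not pass had such neighbours too: near NR4A1 14 of 28 tested genes were higher and 2 lower (median 0.40), and near JUND 16 of 52 were lower and none higher. On the same chromosome 9 of 53 were lower and none higher near JUNB, and 11 of 56 were lower and 1 higher near IER2, whose window overlaps that of JUNB. DUSP1 had 1 lower and no higher gene among 16, and ETV1 had no tested neighbour in that distance. Some lower neighbours counted above entered the test only through the EGFP positive libraries, where they are higher. ENSG00000286034 near MYC was at 0.04 CPM in EGFP negative and 1.13 CPM in EGFP positive cells. ENSG00000227120 near DUSP2 was at 0.20 CPM in EGFP negative and 1.08 CPM in EGFP positive cells. The counts of lower neighbours are thus a description. The named neighbours were chosen after their values were seen, and whether they share a cause with the member was not tested.

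**Figure D5:**
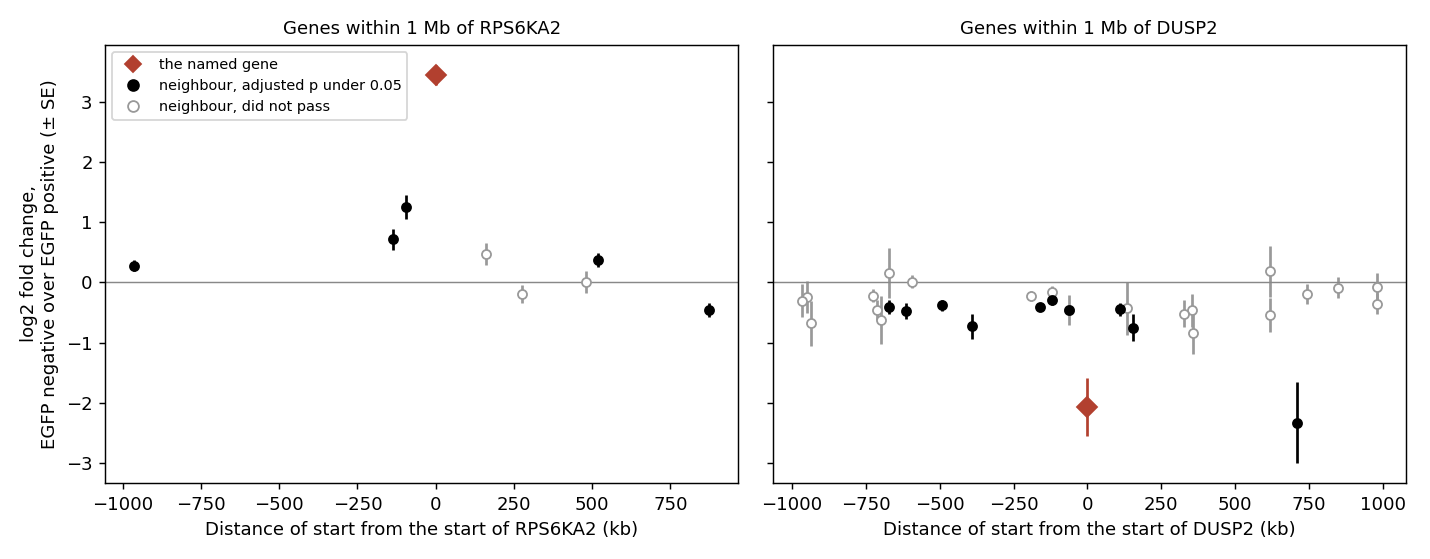
The log2 fold change (EGFP negative over EGFP positive, y axis, bars of 1 standard error) of the tested genes within 1 Mb of RPS6KA2 (left) and DUSP2 (right), by distance between start sites in kb along the strand of the named gene. Around DUSP2, 28 of 31 neighbours lie below 0, and RPS6KA2 lies far above its 8 neighbours.

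The 5 further lists of the pathway were also chosen with earlier results of these data known, so the share called is a description. In them 74 of 82 genes were tested, of which 11 rose and 17 fell in EGFP negative cells. That is 37.8%, with a median log2 fold change of 0.00, against 18.9% of all tested genes and 23.6% of those at 10 CPM or more. In the signalling core, 2 rose and 3 fell of 18, at 27.8% not far from that share: the phosphatase gene PTPN11, which links receptors to RAS, fell (270 and 278 CPM in EGFP negative libraries, 360 and 376 CPM in EGFP positive libraries, adjusted p = 0.0013), as did MRAS (log2 fold change -1.19), while MAP2K2, encoding MEK2, and RRAS rose (0.42 and 0.41). Of the negative regulators tested, 4 rose and 4 fell of 16. The RAS GTPase-activating genes differed among themselves, with RASA1 at 155 and 154 CPM in EGFP negative libraries and 96.3 and 107 CPM in EGFP positive libraries (adjusted p = 2.9e-04). RASAL2 was at 68 and 67.5 CPM in EGFP negative libraries and 102 and 105 CPM in EGFP positive libraries (adjusted p = 2.6e-04). ERRFI1, an inhibitor of the EGF receptor, rose (log2 fold change 0.49, adjusted p = 5.9e-04) and DUSP14 fell (-0.57, adjusted p = 0.0022).

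Effector kinases and nuclear factors of the pathway had 0 higher and 3 lower of 11, at 27.3% likewise not far from the share over all genes. SRF, the serum response factor that binds the CArG box, was at 133 and 111 CPM in EGFP negative libraries and at 184 and 171 CPM in EGFP positive libraries (log2 fold change -0.54 ± 0.10, SE, adjusted p = 0.0014), and ETS1 and ETS2 fell by 0.34 and 0.36 on the log2 scale. Further immediate early and ERK output genes had 4 higher and 4 lower of 20. IER5L, a relative of IER5, rose 3.69-fold (28.3 and 19.4 CPM in EGFP negative libraries, 7.01 and 5.9 CPM in EGFP positive libraries, adjusted p = 1.8e-05) and the ephrin receptor gene EPHA4 rose (log2 fold change 0.70), while the cyclin gene CCND1 (806 and 743 CPM in EGFP negative libraries, 995 and 993 CPM in EGFP positive libraries, adjusted p = 0.0032) and the kinase gene SGK1 (-0.52) fell. The p38 and JNK arms had 1 higher and 3 lower of 9. MAP2K6 and MAP2K3, both of which encode kinases that activate p38, went opposite ways, with MAP2K6 at 8.19 and 6.86 CPM in EGFP negative libraries and 2.16 and 2.17 CPM in EGFP positive libraries (adjusted p = 2.7e-04). MAP2K3 was at 64 and 50 CPM in EGFP negative libraries and 93.3 and 88.8 CPM in EGFP positive libraries (adjusted p = 8.5e-04). MAPK8, encoding JNK1, and MAPK14, encoding p38 alpha, fell by 0.36 and 0.27 on the log2 scale.

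Of these 19 named genes 8 passed in every alternative fit, MRAS, RASAL2, RASA1, ERRFI1, SRF, IER5L, MAP2K6 and MAP2K3. Without EGFP positive library 1 the adjusted p was 0.11 for RRAS, 0.056 for DUSP14, 0.11 for ETS1, 0.51 for ETS2, 0.11 for CCND1, 0.055 for SGK1, 0.11 for MAPK8 and 0.31 for MAPK14. Without EGFP positive library 2 it was 0.077 for PTPN11, 0.14 for MAP2K2, 0.30 for RRAS, 0.20 for ETS1, 0.083 for ETS2, 0.11 for CCND1, 0.10 for EPHA4, 0.18 for SGK1, 0.25 for MAPK8 and 0.35 for MAPK14. RRAS also lost its call without EGFP negative library 1 (0.092), and by DESeq2 and with no filter the adjusted p was 0.089 and 0.073 for RRAS, 0.13 and 0.090 for ETS2 and 0.055 and 0.051 for MAPK14.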

How the data were processed

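Per the labels' protocols, libraries were strand-specific and made from polyadenylated RNA. Per the file headers the authors ran featureCounts 2.0.1 in paired mode on the exons of each gene name in the GENCODE 46 basic annotation, with no strand option. The deposited values are raw counts, 1 table per library. The submitters' processing notes list Subread and the builds GRCh37 and hg19, and the aligner is not given in the sources used here. Coordinates of all 39 members overlapped their place in GENCODE 29 on GRCh38, the build printed here.

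Genes were kept by filterByExpr (minimum count 10, minimum total 15) and tested with edgeR 4.0.16 (R 4.3.3, TMM, quasi-likelihood, group as the only term, adjusted p under 0.05). A standard error is the log2 fold change over the square root of F. The smallest exact permutation p for 2 against 2 libraries is 0.333. Replicate libraries differed by more than sampling noise (chi-square per degree of freedom 6.15 in EGFP negative and 2.06 in EGFP positive libraries). CPM used TMM-scaled totals, and TPM the exon length in the tables.

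Scripts were tested on simulated data. Members and lists were chosen with earlier results of these data known. Per-library values are given for each member that passed and for the 2 most abundant others of a class, and up to 4 called genes per further list are named; EGR1, FOS, JUND, NR4A1 and SPRED3 were added after their values were seen, as was the level of 10 CPM. Alternatives were RLE and upper quartile scaling, no filter or a stricter one (1 CPM in 2 libraries, summed count of 100), DESeq2 1.42.0, limma-voom (limma 3.58.1), the replicate number as a block, and each library left out. One leukocyte marker is not reported here.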

Additional observations from a re-analysis of the deposited data

How the results depend on the processing

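Of the 18 called members 8 passed in all 11 alternatives, and 10 lost their call in at least 1; the stricter filter left out DUSP2, FOSB and NR4A1. Counts of called members stayed within 1.5 times of 11 higher and 7 lower under both scalings, both filters, DESeq2 and limma-voom. With 1 library left out they ran from 6 to 13 higher and from 2 to 13 lower, fewest without an EGFP positive library; all genes then ran from 720 to 2477 higher and 715 to 2465 lower, and the further lists from 5 to 23 higher and 5 to 19 lower. These fits have 1 residual degree of freedom, and a lone library is assumed to vary like the others. DESeq2 called 997 genes lower (1552 in edgeR) and 11 lower genes of the further lists (17 in edgeR), which were also 11 with no filter on low counts. Whether the replicate numbers of the labels pair the libraries is not known. The correlation of same-numbered deviations was 0.114, and 2 pairs are too few to decide it. With the replicate block, 2297 genes and 14 members were higher, and 2407 genes and 11 members were lower. Of the further lists, 17 genes were higher with the block. FOSB (adjusted p = 0.018), FOSL2 (0.015), JUN (0.0069), JUND (1.1e-04), ATF3 (0.020), DUSP6 (0.014) and SPRED1 (0.031) passed with it. Log2 fold changes that changed sign belonged to members that did not pass: with 1 library left out FOS ran from -0.37 to 0.25 (above 0 without EGFP negative library 2 and, at 0.18, EGFP positive library 1), EGR1 from -0.28 to 0.12 (above 0 without EGFP positive library 2), NR4A1 from -0.11 (without EGFP negative library 1) to 0.80, DUSP7 from -0.26 to 0.0205 (without EGFP negative library 2), SPRED2 from -0.0035 (without EGFP negative library 1) to 0.14, and RPS6KA3 from -0.0357 to 0.0193 (above 0 without EGFP negative library 2 and EGFP positive library 2); upper quartile scaling gave 0.0050 for RPS6KA3. The cause of these shifts was not tested.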

Other observations

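A published set of 10 transcripts used to read MAPK pathway activity (PHLDA1, SPRY2, SPRY4, DUSP4, DUSP6, CCND1, EPHA2, EPHA4, ETV4 and ETV5) was set out after the values of its members were known, so it is a description with no test. In EGFP negative cells 6 of the 10 were higher, CCND1 was lower, and PHLDA1, DUSP6 and EPHA2 did not pass. That is 70% called, against 18.9% of all tested genes and 23.6% of those at 10 CPM or more. Of the 6 higher genes only DUSP4 and SPRY4 passed in all 11 alternative fits. SPRY2 passed in 7 of them, ETV4 and ETV5 in 9 each and EPHA4 in 10. CCND1 passed in 9. The median log2 fold change of the set was 0.32, against 0.00 over all tested genes. EPHA2, which encodes an ephrin receptor, was at 689 and 556 CPM in EGFP negative libraries and at 543 and 504 CPM in EGFP positive libraries (log2 fold change 0.25, adjusted p = 0.084 by edgeR's quasi-likelihood test). Without EGFP negative library 1 its log2 fold change was 0.0842 (adjusted p = 0.34), and without EGFP negative library 2 it was 0.405 (adjusted p = 1.6e-09), so the value depends on which of these libraries is kept.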
